A study of Homo sapiens with 4 samples.

Results

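The promoters of genes under genomic imprinting were followed by ATAC-seq in HEK293T cells, an established human embryonic kidney line carrying the SV40 large T antigen. ATAC-seq uses the Tn5 transposase to insert sequencing adapters into open DNA, so that a high count at a promoter marks accessible chromatin. The overexpression group (n = 2 libraries) had been transfected with a plasmid encoding MORC2, an ATPase that compacts DNA, as a fusion with a green fluorescent protein. Control cells (n = 2 libraries) were given the lipofectamine reagent, and the labels do not say whether they also received an empty plasmid. Both groups were wild type for the endogenous MORC2 gene, and transfection was transient, so the cells of a culture need not carry equal amounts of plasmid. A list of 40 imprinted genes and their non-coding partners was matched by Entrez identifier to the count table, in which 39 had a promoter among 28775. KCNQ1OT1 was not analysed here, and SLC22A18 is listed in the gene table under the symbol SLC67A1.

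In imprinted genes, the copy inherited from one parent is expressed and the other copy is silenced. The memory of parental origin is held by DNA methylation at imprinting control regions, which was placed in the germline and is kept in the embryo by the zinc finger proteins ZFP57 and ZNF445 with TRIM28. Imprinted genes lie in clusters that share a control region, and many act in growth, in the placenta and in the brain. The count table does not separate the parental copies, so each value below is the sum over both, and HEK293T cells can carry unequal numbers of them. The question addressed was how MORC2 overexpression changed accessibility at these promoters, cluster by cluster.

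Promoter sequences of 4 members show the range of sequence in the list, from CpG-rich to CpG-poor starts. They were read from RefSeq promoters of GRCh38.p14, each spanning 250 bases before to 50 bases after an annotated start, and are written 5′ to 3′ on the strand of the gene. The authors counted on another assembly, so these windows are not the ones counted. Capitals mark the methylation-dependent recognition hexamer of ZFP57, TGCCGC, or its reverse complement. HYMAI lies on the minus strand at chr6:144008210-144008509, and this start is shared with 1 of the PLAGL1 starts. INPP5F, the most accessible member, lies on the plus strand at chr10:119726246-119726545. Another INPP5F start, at chr10:119819019-119819318 with 9 CpG, is not printed, and which start serves the imprinted transcript was not examined. H19, whose cluster holds the promoter that passed the test, lies on the minus strand at chr11:2001217-2001516. SNURF, among the least accessible members, lies on the plus strand at chr15:24954737-24955036, a start shared with 1 of those of SNRPN.
HYMAI: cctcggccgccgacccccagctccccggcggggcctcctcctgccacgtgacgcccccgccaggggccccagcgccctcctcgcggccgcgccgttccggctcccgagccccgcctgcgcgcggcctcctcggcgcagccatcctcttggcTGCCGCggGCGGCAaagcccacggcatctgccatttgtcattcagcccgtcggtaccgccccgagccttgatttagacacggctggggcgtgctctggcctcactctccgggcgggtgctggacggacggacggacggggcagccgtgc
INPP5F: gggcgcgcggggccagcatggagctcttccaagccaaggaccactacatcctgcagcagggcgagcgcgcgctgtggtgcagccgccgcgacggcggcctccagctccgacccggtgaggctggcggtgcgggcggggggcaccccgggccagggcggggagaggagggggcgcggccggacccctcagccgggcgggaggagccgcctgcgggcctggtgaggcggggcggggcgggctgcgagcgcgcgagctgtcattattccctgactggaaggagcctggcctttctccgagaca
H19: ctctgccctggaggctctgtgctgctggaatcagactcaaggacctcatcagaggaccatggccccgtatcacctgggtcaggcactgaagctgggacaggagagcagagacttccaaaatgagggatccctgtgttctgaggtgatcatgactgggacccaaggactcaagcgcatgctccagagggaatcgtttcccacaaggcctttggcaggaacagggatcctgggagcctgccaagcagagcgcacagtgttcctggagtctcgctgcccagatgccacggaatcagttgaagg
SNURF: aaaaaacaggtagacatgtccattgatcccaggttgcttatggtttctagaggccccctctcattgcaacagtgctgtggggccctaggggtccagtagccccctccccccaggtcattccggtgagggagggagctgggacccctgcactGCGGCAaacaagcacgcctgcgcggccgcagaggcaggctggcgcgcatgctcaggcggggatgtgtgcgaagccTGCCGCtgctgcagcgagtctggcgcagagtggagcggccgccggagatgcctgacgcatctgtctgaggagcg

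The HYMAI window held 39 CpG dinucleotides and 2 hexamers, and the INPP5F window held 34 CpG and no hexamer. The H19 window held 6 CpG and no hexamer, whereas the SNURF window held 18 CpG and 2 hexamers.

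Control replicates 1 and 2 held 10255182 and 8279528 promoter counts in total, and the overexpression replicates held 7211724 and 3734519. Promoters of mitochondrial genes held 51.9% and 55.6% of the counts in control and 74.7% and 73.8% in overexpression, leaving the overexpression libraries shallower at nuclear promoters. At the median member, counts were 73 and 50 with lipofectamine and 27 and 15 with MORC2. Counts at the MORC2 promoter were 257, 162, 87 and 42 (control replicates 1 and 2, then overexpression replicates 1 and 2, the order kept for every list of 4 counts below), and since a plasmid copy of the gene need not carry this promoter, they check neither group's label. Promoters of 7 genes that HEK293T cells are known to express lay between the 48.0 and 98.4 percentiles of nuclear promoters in control, VIM highest, with KRT8, KRT18 and NEFM just under the 50th. Promoters of 7 genes of other cell types lay between the 4.04 and 54.9 percentiles, so the ranges of both lists overlapped.

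Imprinted promoters covered a wide range of accessibility in control cells. Levels are given as CPM, counts scaled to library totals by the TMM method. The study defined promoters as windows of equal size, but it is not stated that the deposited counts use them, and levels of different genes are compared here on that assumption. The mean control level ran from 0.407 CPM at SNRPN to 32.3 CPM at INPP5F, a 79.4-fold range. The median member stood at 5.41 CPM, against 7.06 CPM for all 28738 nuclear promoters. Of the 39, 26 lay below the 50th percentile of nuclear promoters and INPP5F lay highest, at the 91.1 percentile. The 24 genes assigned to the paternal copy had a median control level of 2.10 CPM, and the 11 assigned to the maternal copy had 8.55 CPM. The 4 whose expressed copy depends on the transcript had 16.8 CPM. These classes come from general knowledge and were not measured in these cells. UBE3A, for example, is placed with the maternal genes but is expressed from both copies in most cells other than neurons. The paternal genes include those of the SNRPN cluster, all of low accessibility, and PEG3 and ZIM2, which had identical counts. Whether level goes with parental origin was not tested.

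**Figure D1:**
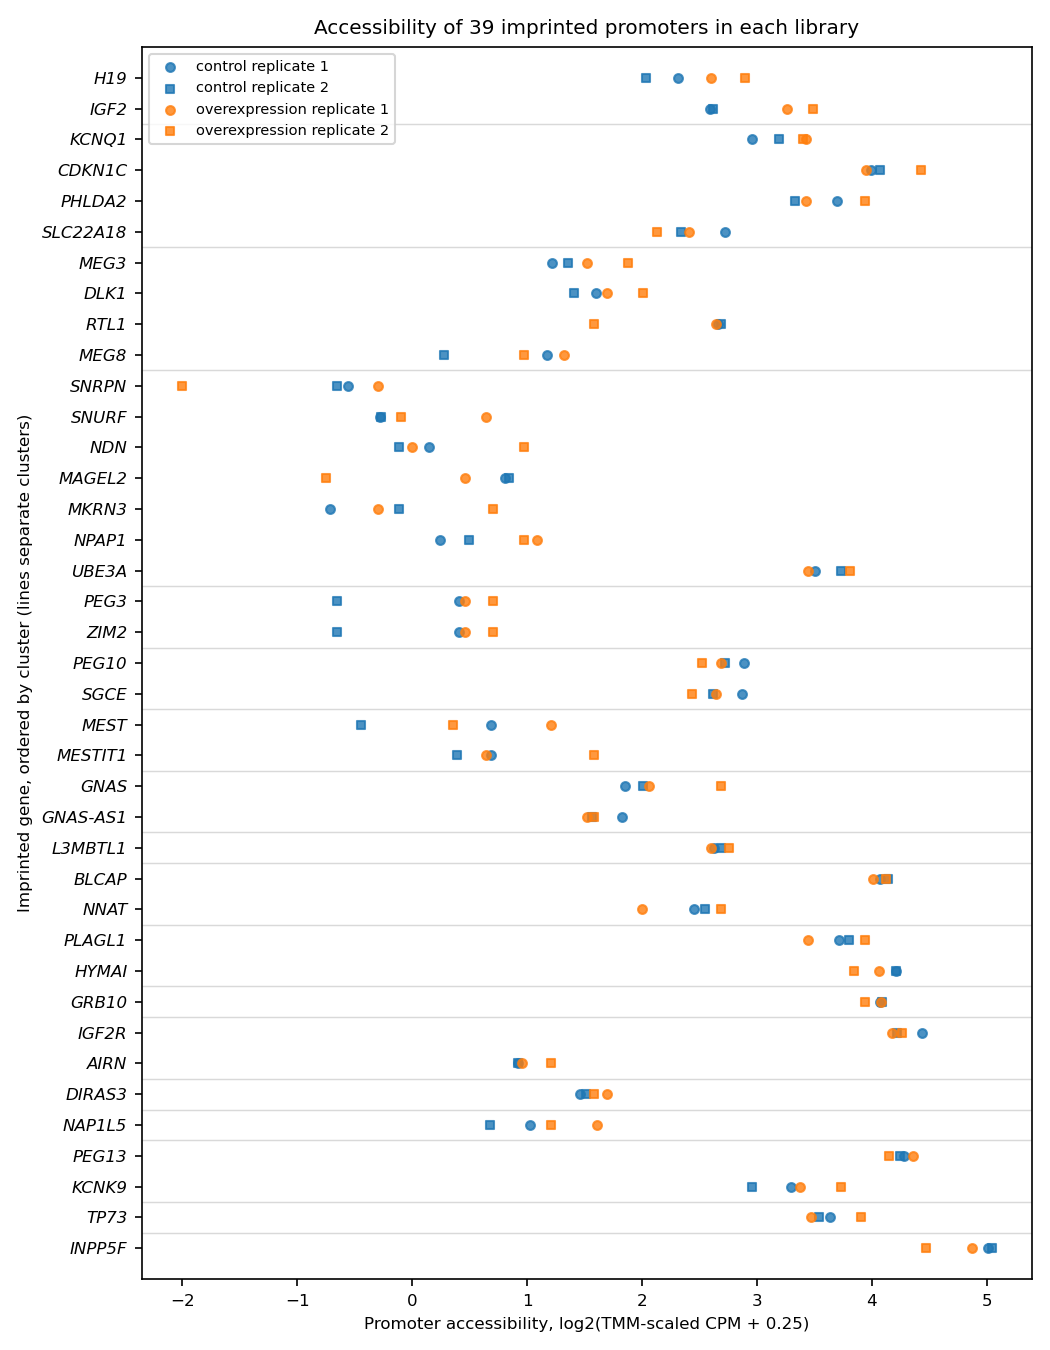
Accessibility of 39 imprinted promoters, as log2 of TMM-scaled CPM plus 0.25 on the horizontal axis, with genes grouped by cluster on the vertical axis. Blue points are control libraries and orange points overexpression libraries. Both orange points lie to the right of both blue points at 14 of the 39, IGF2 and H19 among them. Both lie to the left at 5, INPP5F among them. Among tested promoters, these shares were 33.3% and 15.2% of the members, against 24.8% and 24.9% of all.

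Accessibility rose at 1 imprinted promoter, IGF2, and at no member did a fall pass the test. The table was fitted as a whole with the quasi-likelihood test of edgeR, which kept 23407 promoters and 33 of the 39 members, with p-values adjusted over all of them. One rise among 33 is 3.03%, against 1.16% of all promoters tested that rose, and 0 of 33 fell, against 1.31% of all. An unadjusted p under 0.05 was found at 3 members (9.09%), IGF2 and H19 with higher and INPP5F with lower accessibility, against 17.2% of all promoters. DESeq2 without its independent filtering called 0 members in either direction, and only 52 of all 23407 promoters. Both overexpression libraries lay above both control libraries at 11 tested members (33.3%, against 24.8% of all promoters), and below at 5 (15.2%, against 24.9%). At the other 17 the groups overlapped.

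The fitted log2 fold change, overexpression minus control, was positive at 19 members and negative at 14, against 15 and 18 with loess scaling and 1 and 32 with library totals. It ran from −0.83 at MAGEL2 to 0.81 at NPAP1, both promoters with few counts. The median was 0.055 over the members and 0.0095 over all promoters tested. The 95% interval included 0 for 30 of the 33. It excluded a doubling at 22 and a halving at 32, and at 21 it excluded both, so at these depths large changes could be bounded at most members and small ones were not detectable.

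**Figure D2:**
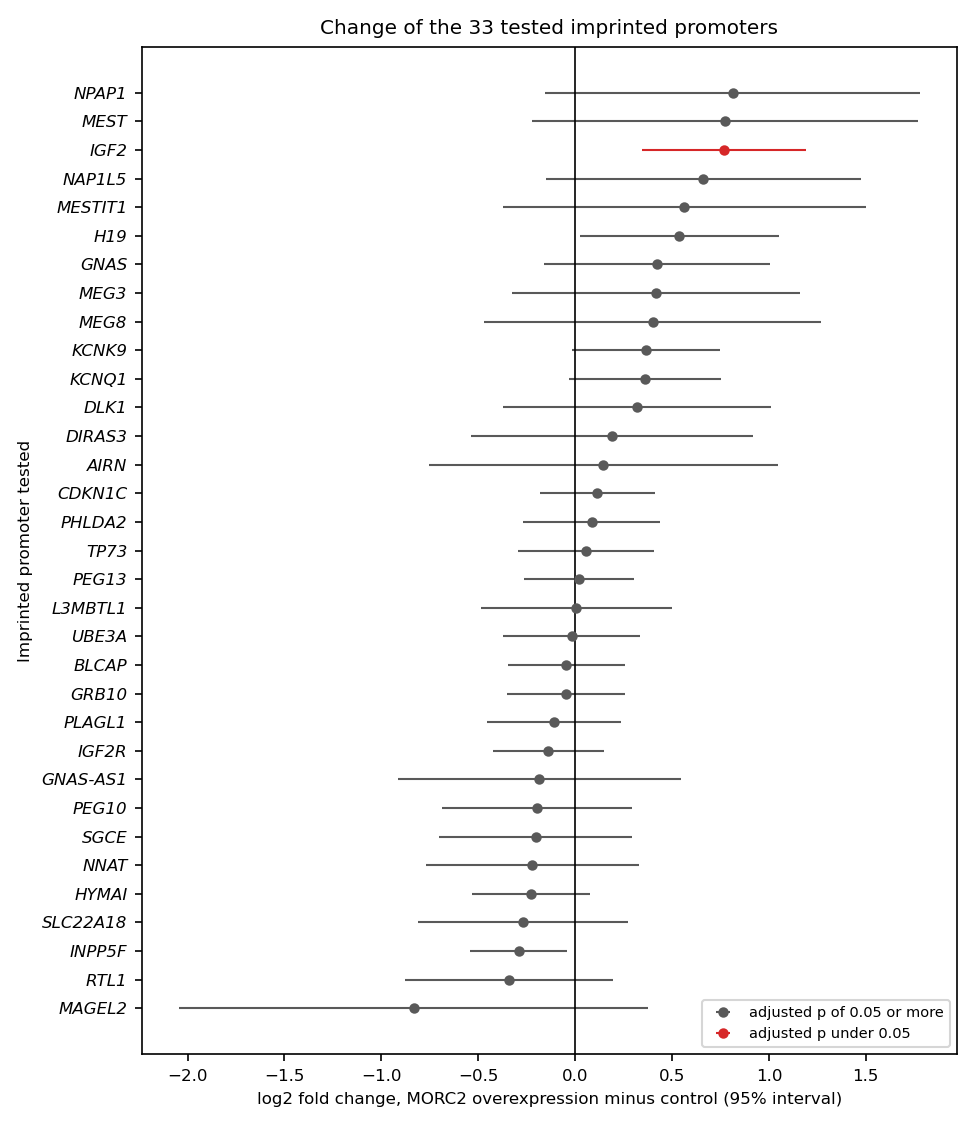
The log2 fold change of each of the 33 tested imprinted promoters, MORC2 overexpression minus control, with its 95% interval as a bar. IGF2, in red, had an adjusted p under 0.05, and 30 of the 33 intervals cross 0. Scaled by library totals in place of TMM, the median of all promoters moves to −0.79. IGF2 and H19 then move to the left of 0, but lie 0.76 and 0.53 above that median.

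The H19-IGF2 cluster on chromosome 11 pairs a growth factor expressed from the paternal copy with a non-coding RNA expressed from the maternal copy. A control region bound by the insulator protein CTCF on the maternal copy decides which of them reaches the shared enhancers. The IGF2 promoter (Entrez 3481) had 81, 61, 50 and 32 counts, which is 5.79 and 5.88 CPM in control against 9.35 and 10.99 CPM in overexpression. Both overexpression libraries lay above the control libraries, with means of 5.84 ± 0.0663 CPM (SD, n = 2) and 10.2 ± 1.16 CPM (SD, n = 2). The log2 fold change was 0.77 (SE 0.216, 95% interval 0.35 to 1.19, adjusted p = 0.0323). Promoters of like abundance had a median log2 fold change of 0.13. The call was lost when any 1 of the 4 libraries was left out (adjusted p from 0.117 to 0.233, log2 fold change from 0.67 to 0.91), with loess scaling on abundance (adjusted p = 0.240) and with DESeq2 without independent filtering (adjusted p = 0.596). With scaling by library totals, which moved the median of all promoters to −0.79, the IGF2 value was −0.024, or 0.76 above that median.

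H19 (Entrez 283120) had 66 and 40 control counts, against 31 and 21 with overexpression, or 4.72 and 3.86 CPM against 5.80 and 7.22 CPM. The groups did not overlap, with means of 4.29 ± 0.608 and 6.51 ± 1.00 CPM (SD, n = 2 each). The log2 fold change of 0.54 (SE 0.262, 95% interval 0.02 to 1.05) did not pass the test after adjustment (adjusted p = 0.273). With library totals, which moved the median of all promoters to −0.79, the H19 value was −0.25, or 0.53 above that median. The summed level of both promoters was 10.1 ± 0.541 CPM in control and 16.7 ± 2.16 CPM in overexpression, a ratio of 1.65. Ratios of like size, also with groups that did not overlap, were found at PEG3 (1.71), MEST (1.68) and NAP1L5 (1.55). At PEG10 (0.86), PLAGL1 (0.89) and INPP5F (0.79) both overexpression libraries lay below control. Among the genes placed in or beside this cluster, the promoter of MIR675, the microRNA made from H19, had 69, 60, 44 and 25 counts (log2 fold change 0.65, adjusted p = 0.104). It lies inside H19, so fragments counted for one can be counted for the other. MIR483, a microRNA in an IGF2 intron, had a log2 fold change of 0.79 (adjusted p = 0.248), with overlapping groups (1.64 and 2.41 against 2.06 and 5.84 CPM). IGF2-AS, antisense to IGF2, had one of −0.37 (adjusted p = 0.544). INS-IGF2 had one of 0.12 (adjusted p = 0.875), and MRPL23-AS1 one of 0.45 (adjusted p = 0.248).

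INPP5F (Entrez 22876), an inositol phosphatase gene on chromosome 10 with a transcript expressed from the paternal copy, had the most counts of all members. These were 447, 339, 155 and 64, or 32.0 and 32.7 CPM against 29.0 and 22.0 CPM. Both overexpression libraries lay below the control libraries, with means of 32.3 ± 0.528 and 25.5 ± 4.95 CPM (SD, n = 2 each). The log2 fold change of −0.29 (SE 0.127, 95% interval −0.54 to −0.04) did not pass the test (adjusted p = 0.193). Without overexpression replicate 2, in which the promoter was lowest, it was −0.16, and without overexpression replicate 1 it was −0.56.

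The remaining cluster on chromosome 11 is governed by the antisense RNA KCNQ1OT1, and its protein-coding genes are expressed from the maternal copy. CDKN1C, which encodes an inhibitor of cyclin-dependent kinases, had the most control counts, with 219 and 172 in control and 81 and 62 in overexpression. Its level was 16.1 ± 0.662 CPM in control and 18.2 ± 4.35 CPM in overexpression (SD, n = 2 each), and the groups overlapped. KCNQ1, a potassium channel gene, had both overexpression libraries above control (7.51 and 8.87 against 10.5 and 10.3 CPM, adjusted p = 0.347). PHLDA2, known to restrain placental growth, and the transporter gene SLC22A18 overlapped between groups, with log2 fold changes of 0.09 and −0.27. Summed over these 4 promoters, the level was 41.2 ± 1.50 CPM in control and 46.0 ± 6.86 CPM in overexpression (SD, n = 2 each), again with overlap.

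In the DLK1-MEG3 cluster on chromosome 14, RTL1, derived from a retrotransposon and expressed from the paternal copy, had the most control counts. It had 85, 64, 32 and 8 counts. The level in overexpression replicate 1, 5.99 CPM, was close to the 6.08 and 6.17 CPM of control, and that in replicate 2 was 2.75 CPM. MEG3 and MEG8, non-coding RNAs of the maternal copy, had log2 fold changes of 0.42 and 0.40, and DLK1, a Notch-like transmembrane protein gene of the paternal copy, had one of 0.32. None of the 4 passed the test (adjusted p from 0.528 to 0.691), and the summed level was 12.4 ± 0.760 CPM in control against 12.8 ± 1.53 CPM in overexpression (SD, n = 2 each).

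The SNRPN cluster on chromosome 15, whose loss on one parental copy underlies the Prader-Willi and Angelman syndromes, held the least accessible members. UBE3A, a ubiquitin ligase gene expressed from the maternal copy in neurons and from both copies in most other cells, stood apart from the others at 12.1 ± 1.37 CPM in control and 12.2 ± 2.18 CPM in overexpression (SD, n = 2 each). It had 155, 135, 57 and 40 counts. The log2 fold change of UBE3A was −0.02 (95% interval −0.37 to 0.34). The 6 genes expressed from the paternal copy all lay below 2 CPM in every library.

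Of these 6, SNRPN and SNURF, which share a transcript encoding a splicing protein and a small upstream protein, had too few counts to be tested. SNRPN had 6, 4, 3 and 0 counts, and SNURF had 8, 6, 7 and 2. The 0 in overexpression replicate 2 allows a level of up to 1.03 CPM, the value of 3 counts there, so it could not be told apart from the other libraries. NDN, a member of the MAGE family, had 12, 7, 4 and 5 counts, and MKRN3, a makorin ligase gene, had 5, 7, 3 and 4, and neither was tested. MAGEL2, also of the MAGE family, had a log2 fold change of −0.83 with an interval from −2.04 to 0.38, and NPAP1 had one of 0.81 with an interval from −0.15 to 1.78. The promoter of SNHG14, the long non-coding RNA that runs on from SNRPN, held the same counts as SNRPN in every library.

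The zinc finger genes PEG3 and ZIM2, of the PEG3 cluster on chromosome 19, share their start, and their counts were identical, at 15 and 4 in control and 6 and 4 in overexpression. They therefore stand for 1 measurement, which was not tested. The 39 members held 38 distinct sets of counts. In the PEG10 cluster on chromosome 7, PEG10, another gene derived from a retrotransposon, had 100, 66, 33 and 16 counts, and its neighbour SGCE, a sarcoglycan gene, had 99, 61, 32 and 15. Both had a log2 fold change of −0.20 and an adjusted p over 0.7. These neighbours start close together, so their windows can hold the same fragments. In the MEST cluster, also on chromosome 7, MESTIT1, antisense to MEST, had 19, 11, 7 and 8 counts. MEST, which encodes a protein of the hydrolase fold, had log2 fold change 0.78, with an interval from −0.22 to 1.77.

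On chromosome 20, the GNAS cluster encodes the stimulatory G protein alpha subunit and several other transcripts with different parental origin. GNAS had 47 and 39 control counts, against 21 and 18 with overexpression, and the log2 fold change was 0.42 (95% interval −0.16 to 1.01). GNAS-AS1, its antisense RNA, had one of −0.18. BLCAP had 231, 180, 85 and 50 counts, at 16.9 ± 0.601 CPM in control and 16.5 ± 0.905 CPM in overexpression (SD, n = 2 each). NNAT, which lies in an intron of BLCAP and is expressed from the paternal copy in the brain, had a log2 fold change of −0.22 with overlapping groups. L3MBTL1, a reader of methylated histones, had 83, 64, 31 and 19 counts and a log2 fold change of 0.01.

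The PLAGL1 cluster on chromosome 6 holds a zinc finger transcription factor gene linked to transient neonatal diabetes, and the non-coding RNA HYMAI. HYMAI had 256 and 189 control counts, against 88 and 41 with overexpression, or 18.3 and 18.2 CPM against 16.5 and 14.1 CPM. Both overexpression libraries lay below control, but the log2 fold change of −0.23 did not pass the test (adjusted p = 0.456). PLAGL1 itself overlapped, at 13.3 ± 0.587 CPM in control against 12.9 ± 3.15 CPM in overexpression (SD, n = 2 each). IGF2R, the receptor that clears IGF2 and whose imprinting varies between people, had 299, 190, 95 and 55 counts. Its log2 fold change was −0.14, and that of AIRN, its antisense RNA, was 0.15 at a level of 1.64 CPM in control.

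GRB10, an adaptor of the insulin receptor on chromosome 7, had 231, 174, 89 and 44 counts and a log2 fold change of −0.05 (95% interval −0.35 to 0.26). In the PEG13-KCNK9 cluster, the non-coding RNA gene PEG13 had 268, 194, 108 and 51 counts and a log2 fold change of 0.02 (95% interval −0.26 to 0.30). These are among the narrowest intervals of the list. KCNK9, a potassium channel gene of the maternal copy, had a log2 fold change of 0.36 (adjusted p = 0.323) with both overexpression libraries above control. TP73, whose imprinting has been disputed, had 170, 118, 58 and 43 counts and a log2 fold change of 0.05. DIRAS3, a Ras-like gene that restrains growth, had 35, 27, 16 and 8 counts and a log2 fold change of 0.19. NAP1L5, of the nucleosome assembly protein family, had 25, 14, 15 and 6 counts and a log2 fold change of 0.66 (95% interval −0.15 to 1.47).

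The fold changes of the members went with their abundance, as did those of all promoters. With all tested promoters in 4 classes of equal size by abundance, the median log2 fold change was 0.39 over all promoters of the lowest class and 0.40 over the 11 members there. In the second class it was 0.13 over all and 0.03 over 14 members, IGF2 and H19 among them, and in the third it was −0.05 over all and −0.05 over 7 members. INPP5F, the single member of the highest class, had −0.29 against −0.13. The IGF2 value was thus 0.64 above the median of its class, and the H19 value 0.41 above it. Taking each overexpression library over each control library, the median log2 ratio of the members ran from −0.03 to 0.18.

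**Figure D3:**
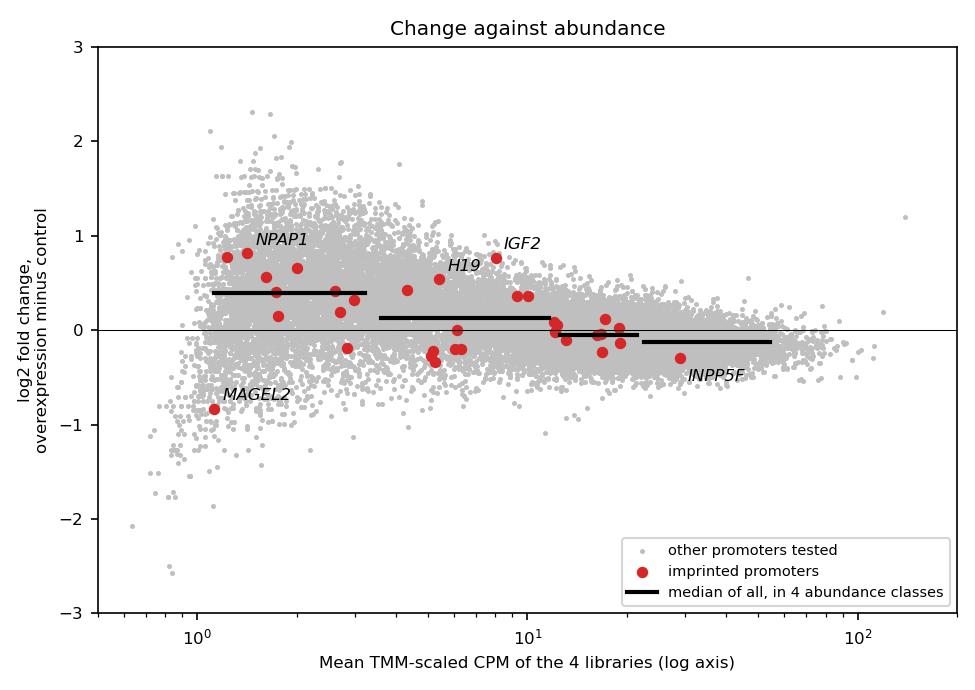
The log2 fold change of each tested promoter against its mean level over the 4 libraries, with imprinted promoters in red and the other 23374 in grey. Black bars are the medians of all promoters in each of 4 equal classes of abundance, from 0.39 in the lowest to −0.13 in the highest, and 38 promoters lie outside the axes. Scaled by library totals, the median of all promoters falls to −0.79. IGF2 and H19 then fall below 0, but lie 0.76 and 0.53 above that median.

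Among the 3 nearest genes on each side of the clusters, 91 were tested, of which 1 rose and 1 fell (1.10% each, near the 1.16% and 1.31% of all promoters). PHACTR2-AS1, beside PLAGL1, rose (15, 8, 16 and 7 counts, log2 fold change 1.55, adjusted p = 0.0377), and CHRAC1, a histone-fold gene beside PEG13, fell (743, 502, 218 and 108 counts, log2 fold change −0.37, adjusted p = 0.0412). The median log2 fold change of the flanking genes was 0.059, beside 0.055 for the members. Of 110 genes inside the clusters, 19 were tested, with a median of 0.51 and a smallest adjusted p of 0.104 at MIR675. The lowest class of abundance, in which the median of all promoters was 0.39, held 14 of these 19. A further list held 33 imprinted genes outside the 40. Some of them also stand among the flanking genes (IGF2-AS and ATP10A, for example) or the inside genes (SNHG14, for example). INS is also among the genes of other cell types named as a comparison. These sets therefore overlap, and the flanking genes are not a set without imprinting. Of the 33, 26 were tested with edgeR. None passed the threshold, against 1.16% of all promoters that rose and 1.31% that fell, and 3 (11.5%, against 17.2% of all) had an unadjusted p under 0.05. DESeq2 without independent filtering called 0 of them, and only 52 of all 23407 promoters. The smallest adjusted p among them was 0.102, at HM13, which encodes a signal peptide peptidase (194, 154, 53 and 30 counts, log2 fold change −0.51).

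Genes that set or keep imprints formed another list of 28, of which 26 were tested. KHDC3L, a subunit of the maternal complex of oocytes, rose (10, 5, 11 and 8 counts, log2 fold change 1.88, SE 0.520, adjusted p = 0.0244), and none fell. The rise is 3.85% of the 26, against 1.16% of all promoters. An unadjusted p under 0.05 was reached by 10 of the 26 (38.5%, against 17.2% of all). DESeq2 without independent filtering called 0 of them, and only 52 of all 23407 promoters. UHRF1, which guides maintenance methylation, ZFP57, CTCFL and NLRP5 were higher by point value (log2 fold change from 0.86 to 1.28), whereas TRIM28, CTCF, SMCHD1, EED and KDM1B were lower (from −0.46 to −0.34), and none of these 9 passed after adjustment. The 4 with the higher values had mean control levels under 3 CPM, and the 5 with the lower values had levels over 15 CPM. At ZFP57 the groups overlapped, with 1.07 and 1.74 CPM in control against 3.18 and 1.37 CPM in overexpression. The KHDC3L call was lost when any 1 library was left out. Of the genes of other cell types, MYH7, a cardiac myosin gene, rose as well (28, 25, 27 and 16 counts, log2 fold change 1.25, adjusted p = 0.0139), and the other 3 that were tested had positive values. How far these values bear on the IGF2 result was not tested.

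Features of sequence that the choice of genes did not use were counted as a description, with no test. Of the 39, 25 were matched to RefSeq promoters of GRCh38.p14, with 56 starts and 54 distinct sequences of 300 bases. The ZFP57 hexamer TGCCGC, searched on both strands, was in 20 of the 54 (37.0%), against 16.7% of 34796 distinct RefSeq promoter sequences. Among sequences with at least 15 CpG it was in 17 of 36 (47.2%), against 28.7% of 17004. The median sequence held 18.5 CpG, against 14 over all promoters. The NRF1 motif GCATGCGC was in 4 member sequences (7.41%) against 2.99% of all, and the YY1 motif AAGATGGC in 3 (5.56%) against 2.89%. Among sequences with at least 15 CpG, NRF1 was in 3 (8.33%) against 5.55%, and YY1 in 2 (5.56%) against 4.49%, so these differences were smaller and rest on few sequences. Starts of 1 gene overlap, so these sequences are not independent, and a match is a description of letters rather than of binding.

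By gene, 14 of the 25 had the hexamer in at least 1 start, MEST, NAP1L5, DIRAS3 and HYMAI among them, which is 56.0% against 19.5% of 27305 genes with a RefSeq promoter. The 25 had more starts each (mean 2.24 against 1.29), and among genes with 1 start the hexamer was in 6 of 13 (46.2%), against 16.2% of 22114. INPP5F, H19, RTL1 and UBE3A had none. Across the 25 genes, the largest CpG count of a gene's starts went with its control accessibility (Spearman's rho = 0.57). The printed HYMAI and INPP5F windows, rich in CpG, belong to genes of high accessibility, but SNURF, with 18 CpG, stood at 0.575 CPM and H19, with 6 CpG, at 4.29 CPM. NDN, with 35 CpG and 0.766 CPM, and GNAS, with 43 CpG and 3.56 CPM, lay well below the others of like CpG count. RTL1, with 6 CpG and 6.12 CPM, and H19 lay above several genes with more CpG. PLAGL1 and HYMAI share a start, as do SNRPN and SNURF, and which start of a gene the authors counted is not given in the sources used here.

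**Figure D4:**
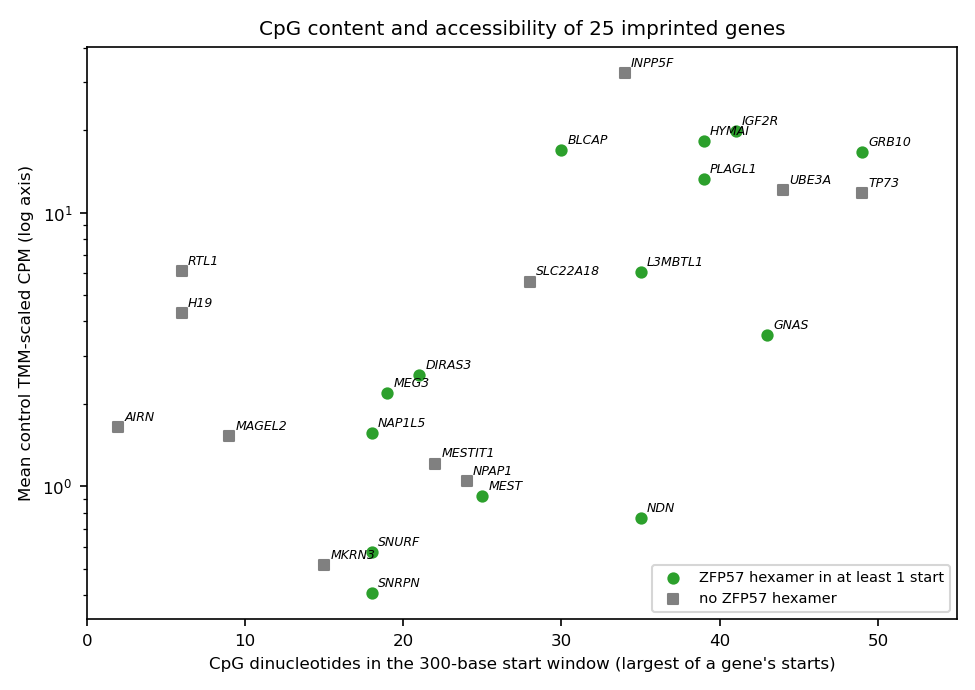
Mean control accessibility in TMM-scaled CPM, on a log axis, against the CpG count of the 300-base start window with the most CpG, for 25 imprinted genes. Green circles are genes with the ZFP57 hexamer in at least 1 start, and grey squares are genes without it. INPP5F lies highest at 32.3 CPM, and NDN lies low at 0.766 CPM with 35 CpG.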

How the data were processed

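The authors, as their methods state, trimmed the reads (trimgalore), mapped them to CHM13 (bowtie2), discarded pairs that were improper or mapped with low quality, and took out duplicates (Picard). The deposited table holds unnormalised counts per promoter, 1 row per Entrez gene, in 2 control and 2 overexpression libraries, whose groups came from the labels. Promoters were defined in the study as a window around each start, and neighbouring windows can share fragments. No shift of read ends for Tn5 was described. Peak lists were not used here, since no annotation of that assembly was at hand.

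Symbols were matched by Entrez identifier to RefSeq genes of GRCh38.p14, which named 28763 of 28775 promoters. All promoters were fitted together in edgeR 4.0.16 (R 4.3.3) with filterByExpr, TMM scaling and the two-sided quasi-likelihood F-test in its legacy form, without covariates, adjusted by Benjamini-Hochberg at a threshold of 0.05. Standard errors came from the same fit. The code was tested on simulated data. No source says that replicates came from separate cultures, so p-values measure only the spread between these libraries, which may be technical. Reads carry no molecular identifiers, so the limit given for a count of 0 covers counting error only.

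The members and lists were chosen with earlier results of these data known. All 40 members are named by cluster, with counts per library for those with an unadjusted p under 0.05, those with the most control counts in a cluster and those not tested. The other counts shown (PEG10's neighbour SGCE and the genes beside the clusters) and the sequences printed were chosen after values were seen. Alternatives covered scaling, filters, DESeq2 1.42.0, a replicate block, mitochondrial promoters and each library left out. Motifs and CpG were counted with Python 3.11.15.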

Additional observations from a re-analysis of the deposited data

How the results depend on the processing

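Of the 33 tested imprinted promoters, 1 passed the threshold. The count was 19, all lower, with scaling by library totals, 0 with loess scaling, 0 with DESeq2 without independent filtering (an alternative chosen after seeing the data), and from 0 to 0 when each library was left out in turn. Library totals moved the median of all promoters to −0.79 and turned IGF2 to −0.024 and H19 to −0.25. The median of the members was −0.73 with library totals, or 0.053 above that of all promoters, and lay between −0.0057 and 0.19 when a library was left out, the highest value without overexpression replicate 1. Imprint maintenance factors past the threshold, 1 as reported, were 17 with library totals and 0 with loess scaling, 0 above a mean count of 50, 0 with the DESeq2 test with or without independent filtering, and from 0 to 0 with a library left out. Other imprinted genes went from 0 to 21 with library totals. Under that scaling, 16325 of all 23407 promoters tested passed, so the 3 larger counts stand beside a large share of all promoters. The cause of these differences was not tested, and fits with 3 libraries have fewer samples and assume that the lone library of a group varies like the other group. DESeq2 with independent filtering gave no adjusted p to any imprinted promoter. The filter at a mean count of 50 left out H19 and also KHDC3L, which therefore could not pass there.

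The replicate numbers come from the labels. The replicate differences of both groups correlated at 0.05 over 14976 promoters, so the numbers were not read as pairs. With the replicate block, 1 imprinted promoter passed, with a log2 fold change of 0.78 at IGF2, and 483 of all promoters did, against 579 without it. Over all promoters, calls numbered 16325 with library totals, 54 with loess scaling, 218 above a mean count of 50, 108 and 52 with DESeq2 with and without independent filtering, and from 101 to 205 with a library left out.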
